A study of Gallus gallus with 6 samples.

Results

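The MYC, MAX and MXD network was examined in the chicken B cell line DT40 with and without the transcription factor PAX5. The 8 genes of the network considered were MYC, MYCN, MAX, MXD1, MXD4, MXI1, MNT and MGA. A probe set, a group of short probes that together measure 1 transcript, was taken as a member when the array annotation gave it 1 of these symbols and no other. This gave 22 probe sets of 7 genes, among 38439 probe sets and 13009 named genes tested. No probe set carried the single symbol MAX, so MAX was not analysed here. Membership rests on gene symbols.

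DT40 is a lymphoma line from the bursa of Fabricius, the organ in which chicken B cells mature. The Pax5-deficient group (genotype Pax5-/-) consisted of 3 samples in which both copies of the PAX5 gene had been targeted by electroporation of the constructs Pax5-neo and Pax5-bsr, with selection of stably transfected clones. The wild-type group consisted of 3 samples of the parental line, and the labels give the same medium and temperature, adult stage and female sex for both groups. Whether the 3 Pax5-deficient samples derive from 1 clone is not stated, and effects of transfection and cloning cannot be told apart from those of the loss of PAX5. They are described as biological replicates, but separate cultures or clones are not mentioned. The p-values therefore reflect only how far these 6 samples scatter, which may be technical.

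MYC is a transcription factor with a basic helix-loop-helix leucine zipper that binds DNA at E-box sequences as a dimer with MAX. MAX also pairs with the MXD proteins, MNT and MGA, which repress transcription from the same sites, so that the balance among partners of MAX sets the output of the network. DT40 comes from a tumour induced by avian leukosis virus, a class of bursal lymphomas in which insertion of the provirus activates MYC, and MYC drives growth in these cells.

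The deposited values are log2 expression values, on which a difference of 1 is a 2-fold change. Array-wide medians lay between 3.95 and 4.02 in the 6 samples. The background of an array was taken as the 95% point of 689 virus probe sets, which averaged 3.83 on the log2 scale. Differences were tested with limma over all probe sets, and a probe set is said to have risen or fallen where its Benjamini-Hochberg adjusted p was under 0.05. PAX5, on chromosome Z, had 4 probe sets, and they disagreed. The probe set that fell was at background in the Pax5-deficient samples, with 3.86, 3.55 and 3.34, against 4.55, 4.41 and 4.30 in the wild-type samples, a fall of at least 1.47-fold (limma adjusted p = 0.00483). The brightest had 4.81, 4.77 and 4.90 in Pax5-deficient samples, against 4.60, 4.50 and 4.65 in wild-type samples, with a limma adjusted p of 0.136. A further 2 were at background in both groups, and the sources used here do not say which of the 4 lie in the sequence that the constructs replaced. Of the B cell markers 6 of 9 measured fell in Pax5-deficient cells and 1 rose, with a mean level of 8.22 to 8.37 in Pax5-deficient samples and 9.32 to 9.36 in wild-type samples. Myeloid markers averaged 4.48 to 4.63 in Pax5-deficient samples and 4.61 to 4.81 in wild-type samples, and 1 of 7 fell. T lineage markers averaged 4.96 to 5.09 in Pax5-deficient samples and 4.71 to 4.83 in wild-type samples, and 2 of 9 rose and 1 fell. Erythroid and thrombocyte markers averaged 3.68 to 3.85 in Pax5-deficient samples and 3.66 to 3.77 in wild-type samples, and 0 of 3 passed in limma, also at an unadjusted p under 0.05. Fibroblast and stromal markers averaged 4.19 to 4.28 in Pax5-deficient samples and 4.03 to 4.23 in wild-type samples, and 1 of 10 rose. Among all named genes 6.01% rose and 9.74% fell. The part of these marker differences in the results below was not tested, and in bulk RNA fewer cells of a kind and less RNA per cell cannot be told apart.

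MGA was the 1 member gene that passed. It fell on 2 of its 8 probe sets, and no member rose. MYC had a very high signal in both groups and did not pass. Among all probe sets 10.6% passed (3.93% higher and 6.7% lower), against 2 of 22 member probe sets (9.09%). By brightest probe set, 15.8% of all named genes passed, against 1 of 7 member genes, and 35% had groups that did not overlap, against 3 of 7 member genes. The groups did not overlap for 27.4% of all probe sets and for 6 of the 22 members (27.3%), 1 of them higher and 5 lower in Pax5-deficient cells, against 14.4% higher and 12.9% lower over the array. The total shares of members are near those of the whole array, so they are no result about the network, and the split by direction was not tested. At an unadjusted p under 0.05, 1 member probe set was higher and 4 were lower, against 10.6% and 11.7% of all probe sets. No member changed by 2-fold, while 1.13% (higher) and 2.9% (lower) of all named genes passed with a change of at least 2-fold. The median difference of the 22 was -0.01 on the log2 scale, with 11 below 0 and 11 above.

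**Figure D1:**
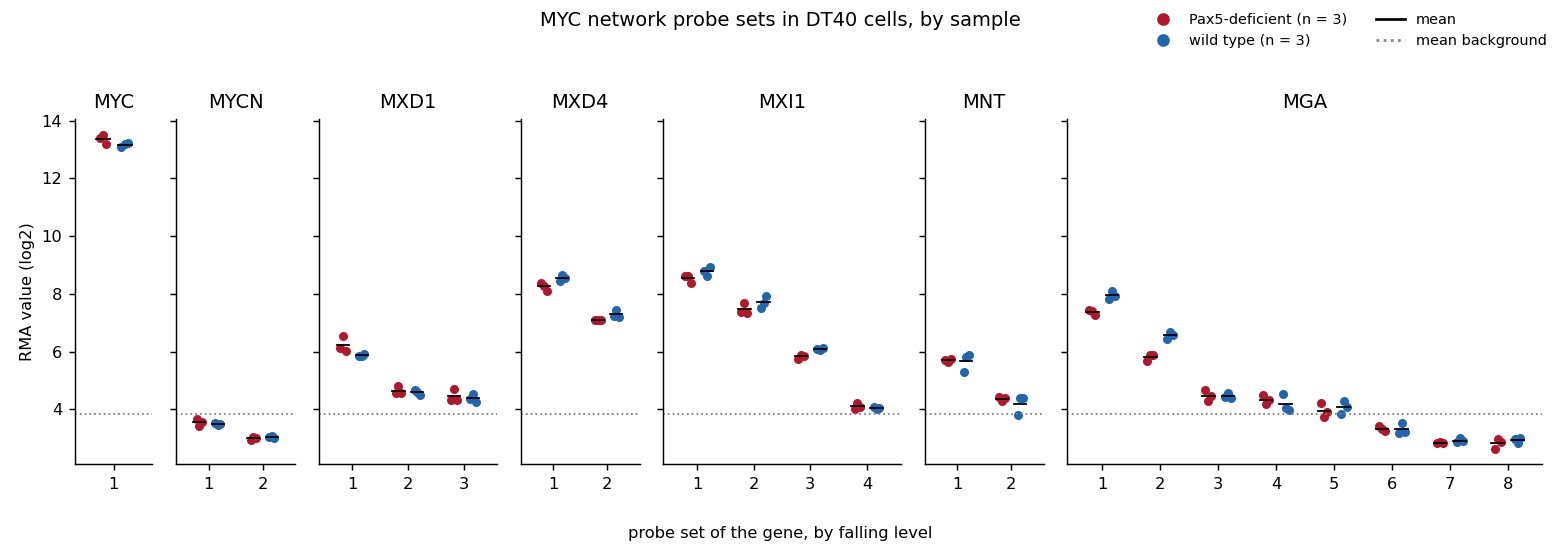
RMA values on the log2 scale (y axis) of the 22 probe sets of 7 MYC network genes, 1 panel per gene with its probe sets numbered by falling level on the x axis, in 3 Pax5-deficient (red) and 3 wild-type (blue) samples. Points are samples, bars group means, and the dotted line the mean background of 3.83. The groups stand clearly apart on MGA probe sets 1 and 2, while MYC lies above 13 and both MYCN probe sets lie under background in every sample.

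MYC was measured by 1 probe set, and the gene lies on chromosome 2. Its values were 13.40, 13.50 and 13.20 in Pax5-deficient samples, against 13.10, 13.19 and 13.21 in wild-type samples. The groups overlapped, since Pax5-deficient replicate 3 lay between wild-type replicates 2 and 3. The difference was 0.20 ± 0.10 log2 units (SE, n = 3 per group; limma adjusted p = 0.296). Its 95% interval ran from -0.03 to 0.43, that is from 0.98-fold to 1.35-fold. Leaving out 1 sample gave differences of 0.13 to 0.28, none of which passed. Between 39 and 53 of 38439 probe sets were brighter than MYC in the Pax5-deficient samples, and between 74 and 92 in the wild-type samples. The highest value of any probe set was 14.03 to 14.10 per array. Whether a signal this near to the top of the scale was saturated cannot be read from these values.

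MYCN, the paralogue of MYC known from the developing nervous system, lies on chromosome 3 and had 2 probe sets. The brighter had 3.66, 3.43 and 3.56 in Pax5-deficient samples, against 3.54, 3.44 and 3.48 in wild-type samples. The other ranged from 2.94 to 3.04 in Pax5-deficient samples and from 2.99 to 3.09 in wild-type samples. Both were at or under background in all 6 samples, so no fold is given and MYCN transcripts were not detectable on these probe sets in either group.

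The MXD proteins bind MAX and repress by recruiting SIN3 corepressors, and several of them rise as cells stop dividing and differentiate. Of MXD1, on chromosome 22, the brightest of 3 probe sets had 6.12, 6.55 and 6.03 in Pax5-deficient samples, against 5.85, 5.86 and 5.91 in wild-type samples. All Pax5-deficient values were above all wild-type values, with Pax5-deficient replicate 2 the highest. The difference of 0.36 ± 0.13 (SE, n = 3 per group) did not pass (limma adjusted p = 0.146), and it was 0.20 without Pax5-deficient replicate 2. The other MXD1 probe sets had differences of 0.06 ± 0.10 and 0.07 ± 0.13 with overlapping groups. The same replicate was the highest of the 6 on these as well, with 4.80 and 4.72, and without it the differences were -0.02 and -0.06.

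MXD4, on chromosome 4, had 2 probe sets, and Pax5-deficient values lay under all wild-type values on both. The brighter had 8.38, 8.28 and 8.10 in Pax5-deficient samples, against 8.43, 8.65 and 8.54 in wild-type samples. Its difference was -0.28 ± 0.11 (SE, n = 3 per group), which did not pass (limma adjusted p = 0.145; 95% interval -0.52 to -0.04). The second had 7.10, 7.10 and 7.08 in Pax5-deficient samples, against 7.24, 7.44 and 7.21 in wild-type samples, with a difference of -0.20 ± 0.09 (limma adjusted p = 0.247). The 95% intervals are those of single probe sets, without adjustment for the number tested.

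MXI1, also called MXD2 and located on chromosome 6, had 4 probe sets. The brightest had 8.63, 8.61 and 8.36 in Pax5-deficient samples, against 8.79, 8.61 and 8.93 in wild-type samples. Those groups overlapped, and the difference was -0.24 ± 0.12 (SE, n = 3 per group; limma adjusted p = 0.267). The next had 7.36, 7.68 and 7.32 in Pax5-deficient samples, against 7.50, 7.67 and 7.94 in wild-type samples, with a difference of -0.25 ± 0.14 (limma adjusted p = 0.359). Probe set 3 by level had 5.74, 5.89 and 5.86 in Pax5-deficient samples, against 6.09, 6.05 and 6.11 in wild-type samples, and was the 1 MXI1 probe set on which the groups did not overlap. Its difference of -0.25 ± 0.09 had the smallest adjusted p of the members that did not pass (0.105, limma). The dimmest probe set had 4.01 to 4.22 in Pax5-deficient samples and 4.01 to 4.06 in wild-type samples, close to background. The 3 brighter probe sets thus gave point estimates of like size and the same sign, and none passed.

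MNT, a MAX partner that is present in both growing and resting cells and opposes MYC there, lies on chromosome 19. Its brighter probe set had 5.71, 5.64 and 5.73 in Pax5-deficient samples, against 5.29, 5.80 and 5.88 in wild-type samples. The second had 4.42, 4.28 and 4.38 in Pax5-deficient samples, against 3.80, 4.37 and 4.41 in wild-type samples. Wild-type replicate 1 was the lowest of the 6 samples on both, and on the second it was at or under background. The differences were 0.04 ± 0.15 and 0.17 ± 0.16 (SE, n = 3 per group), with adjusted p of 0.929 and 0.621 in limma. Without wild-type replicate 1 they were -0.15 and -0.03, so the sign of both rested on that sample.

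MGA encodes a large protein with both a T-box and a helix-loop-helix domain, which pairs with MAX and scaffolds a Polycomb complex known as PRC1.6. The gene lies on chromosome 5 and had 8 probe sets, more than any other member. On the brightest the values were 7.44, 7.40 and 7.28 in Pax5-deficient samples, against 7.81, 8.09 and 7.93 in wild-type samples. The groups did not overlap, and MGA fell by 0.57 ± 0.10 log2 units, or 1.48-fold (SE, n = 3 per group; limma adjusted p = 0.00702). On the second the values were 5.68, 5.89 and 5.87 in Pax5-deficient samples, against 6.43, 6.67 and 6.59 in wild-type samples. That fall was 0.75 ± 0.10, or 1.69-fold (limma adjusted p = 0.00172). Both calls held when any 1 of the 6 samples was left out, with highest adjusted p of 0.0349 and 0.0126 in limma.

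The remaining 6 MGA probe sets did not pass. The 2 next by level, numbers 3 and 4, were above background in all 6 samples, with 4.28 to 4.67 and 4.19 to 4.50 in Pax5-deficient samples and 4.39 to 4.57 and 3.97 to 4.54 in wild-type samples. Their differences were 0.01 ± 0.12 and 0.16 ± 0.16 (SE, n = 3 per group), and the 95% interval of the first, -0.25 to 0.27, did not reach the fall seen on the bright probe sets. The fifth, at 3.72 to 4.21 in Pax5-deficient samples and 3.84 to 4.28 in wild-type samples, straddled background. The remaining 3 were under background in every sample, with values of 2.63 to 3.54 over both groups. One of these, the eighth by level, shares the target number of the brightest probe set in its identifier and differs in the suffix. When the 8 probe sets were averaged, the difference was -0.18 and did not pass (limma adjusted p = 0.137). The sources used here do not place the probe sets along the MGA transcript, and the suffix _s_at of both probe sets that fell marks probes that can match more than 1 transcript. Numbers 4 and 5 by level, which did not pass, carry the same suffix.

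**Figure D2:**
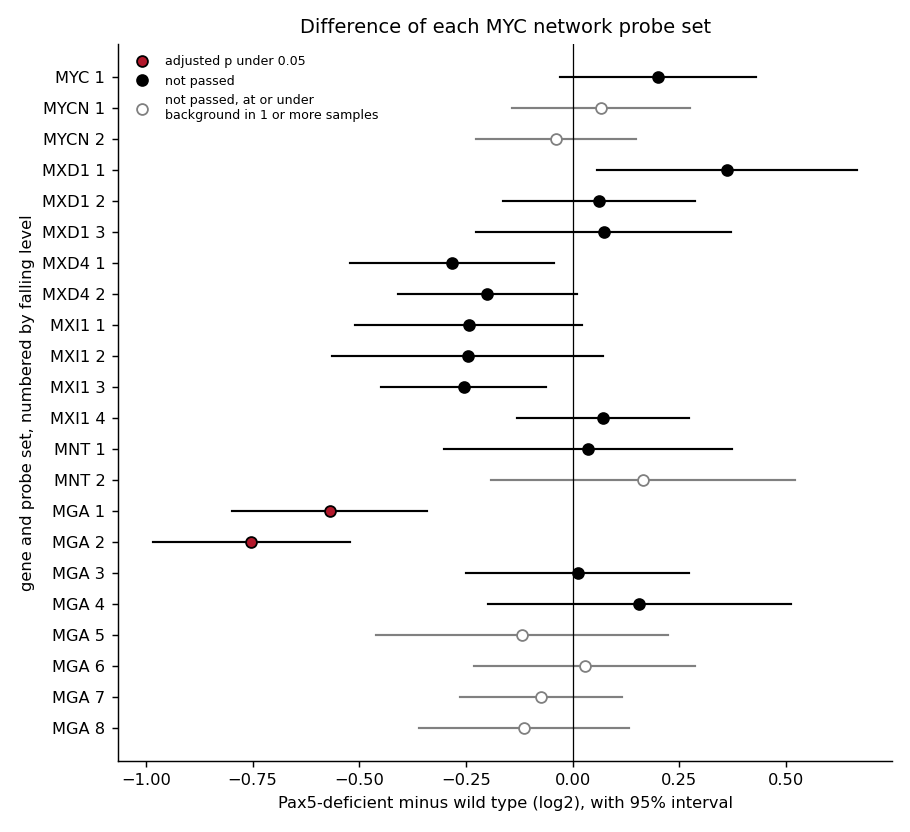
Difference of each member probe set on the log2 scale, Pax5-deficient minus wild type (x axis), with limma's 95% interval as a line; genes and probe sets run down the y axis, numbered by falling level. Red points passed an adjusted p of 0.05 and open points were at or under background in at least 1 sample. The 2 bright MGA probe sets lie at -0.57 and -0.75, and every other interval either spans 0 or belongs to a probe set that did not pass after adjustment.

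The 7 genes lie on 7 different chromosomes, taken from the reference annotation of assembly GRCg7b. Other genes of these chromosomes had median differences of 0.01 to 0.03 on the log2 scale, against 0.03 for all named genes. On chromosome 5, which carries MGA, the median of the other 809 genes was 0.02, with quartiles of -0.12 and 0.15, and 15.1% of them passed. The median of chromosome 5 as a whole was thus near that of all named genes, and genes close to MGA were not examined separately. Over the 6 samples, the genes most like MYC by Pearson correlation of the brightest probe sets were C3H2ORF3 (r = 0.999), CLUH (0.993) and BLZF1 (0.993). On those probe sets they had differences of 0.34 ± 0.13, 0.30 ± 0.13 and 0.43 ± 0.18 (SE) and did not pass. Another C3H2ORF3 probe set rose by 0.57 ± 0.12 (limma adjusted p = 0.0194), and another of CLUH by 1.21 ± 0.30 (0.0367). The remaining CLUH probe sets had -0.08 ± 0.11 and 0.03 ± 0.14 and did not pass. The genes most like MGA were CDPF1 (0.996), COA7 (0.995) and TM4SF18 (0.995). CDPF1 fell by 0.67 ± 0.11, with -0.03 ± 0.09 and -0.31 ± 0.13 on 2 further probe sets that did not pass, and TM4SF18, at background in the Pax5-deficient samples, had a limma adjusted p of 0.0466, which was lost without any 1 of the 6 samples (0.0563 to 0.174). COA7 had -0.27 ± 0.08. These correlations are the highest among all named genes, rest on 6 points in 2 groups, and are a description.

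Relatives and partners of the network that are not members were examined next, and not all of them pair with MAX or MLX. The MXD gene among them fell more than any member. MXD3, an MXD protein that is known to be present in dividing cells, had 1 probe set with 6.45, 7.14 and 6.56 in Pax5-deficient samples, against 8.12, 8.22 and 7.98 in wild-type samples. All Pax5-deficient values lay under all wild-type values. MXD3 fell by 1.39 ± 0.17 log2 units, or 2.62-fold (SE, n = 3 per group; limma adjusted p = 0.00103). MITF, a helix-loop-helix zipper factor of pigment and mast cells, had 4.99, 4.91 and 5.20 in Pax5-deficient samples, against 6.14, 6.41 and 6.25 in wild-type samples, and fell by 1.23 ± 0.11, or 2.35-fold (limma adjusted p = 0.000176). Another MITF probe set fell by 1.04 ± 0.15, while the 2 others above background had differences of 0.29 ± 0.13 and -0.03 ± 0.16 and did not pass.

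Of 14 such factors 9 were measured, of which 4 fell and none rose in limma, also at an unadjusted p under 0.05, where 6 were lower. Among all named genes 6.01% rose and 9.74% fell, and at an unadjusted p 14.1% were higher and 16% lower. Of these 13009 genes 2869 were at background in both groups. Without probe sets under the median level, 816 of 8917 named genes rose and 1283 fell, and 4 of 8 factors of the list fell. The count of falls in the list was 2 without Pax5-deficient replicate 1 or 2, without wild-type replicate 2 or 3, and after quantile normalization. The median difference of the 9 was -0.30, against 0.03 for all named genes. MLXIP, which with MLX forms a glucose-responsive branch of the network, had 7.15, 7.27 and 7.36 in Pax5-deficient samples, against 7.52, 7.72 and 7.83 in wild-type samples, and fell by 0.43 ± 0.11 (limma adjusted p = 0.034). MYCBP, a small protein that binds MYC and was named after its values were seen, fell by 0.47 ± 0.12 (limma adjusted p = 0.0412). A second MLXIP probe set above background had -0.23 ± 0.13 and did not pass. Both of these calls were weak. The MLXIP call was lost without any 1 sample except wild-type replicate 1 (0.0526 to 0.128), the MYCBP call without any except Pax5-deficient replicate 3 (0.0726 to 0.147), and both after quantile normalization (0.0582 and 0.0715). A variance trend also ended the MLXIP call (limma adjusted p = 0.0547), and the mean of probe sets the MYCBP call (0.144). The other MYCBP probe set in that mean was at background in both groups, so the mean says little about the MYCBP call. The remaining genes of the list, TFEB, MYCBP2, USF1, TFEC and MLX, did not pass, with differences of -0.30 ± 0.09, -0.26 ± 0.09, 0.16 ± 0.11, 0.06 ± 0.09 and -0.01 ± 0.10, and TFEC was at background in both groups.

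**Figure D3:**
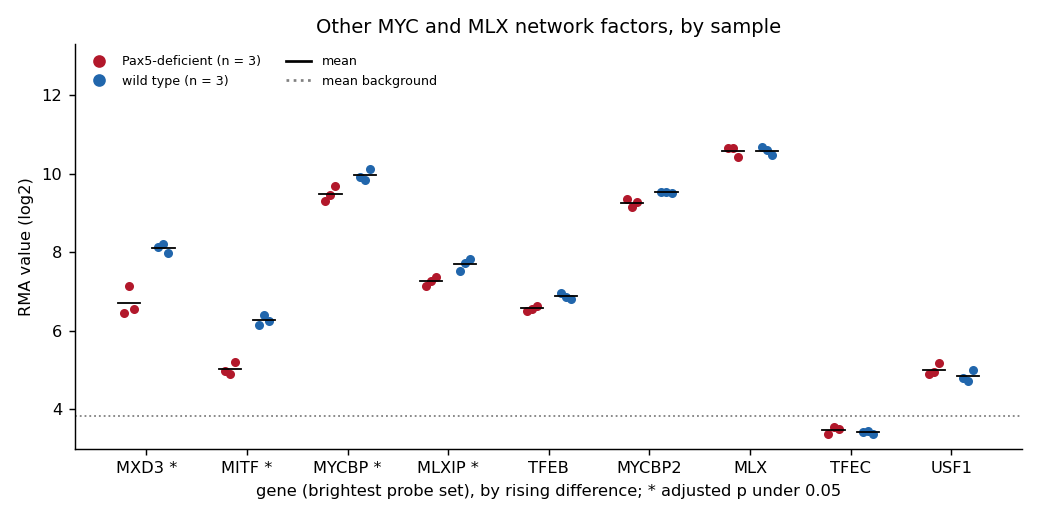
RMA values on the log2 scale (y axis) of 9 relatives and partners of the MYC and MLX network (x axis, ordered by rising difference) in 3 Pax5-deficient (red) and 3 wild-type (blue) samples. Points are samples, bars group means and the dotted line the mean background. MXD3 and MITF show the widest gaps between the groups, and MLX, the shared partner of the MLX branch, shows overlapping groups near 10.6.

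Partners through which the members act were counted next. The list of SIN3 and HDAC corepressors also holds NCOR1 and SKI, so its counts are not those of a single complex. Of its 16 measured genes, 4 fell and none rose in limma (1 higher and 5 lower at an unadjusted p under 0.05). The median difference was -0.17. Thus 25% passed, against 15.8% of all named genes (6.01% higher and 9.74% lower). SAP30, a SIN3 subunit, had a fall of 0.57 ± 0.13 (SE, n = 3 per group). NCOR1, a nuclear receptor corepressor, had one of 0.39 ± 0.09 on its brightest probe set, while 4 others above background had differences of -0.30 to 0.01 and did not pass. SIN3B, a scaffold on which MXD proteins dock, had one of 0.39 ± 0.09, and -0.25 ± 0.18 on a second probe set, which did not pass. For NCOR1 the mean of probe sets takes in another that was at background in both groups. With the mean of their probe sets neither NCOR1 nor SIN3B passed (limma adjusted p = 0.145 and 0.0935). These calls were lost without wild-type replicate 2, without wild-type replicate 3 or without Pax5-deficient replicate 3, each of which left 0 falls in limma (4 lower at an unadjusted p under 0.05). The count was 2 falls without Pax5-deficient replicate 1 or wild-type replicate 1, 1 fall with a variance trend, and 1 fall and 1 rise after quantile normalization. SAP18, the brightest of the list, had -0.14 ± 0.10 and did not pass.

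Of 10 measured subunits of the MGA complex, 1 rose, 1 fell and 8 did not pass, with a median difference of -0.16, or -0.11 after quantile normalization. The share that passed was 20%, against 15.8% of all named genes. TFDP2, a partner of E2F factors, rose by 0.40 ± 0.08 (SE, n = 3 per group) and by 0.47 ± 0.10 on a second probe set, while 2 others above background had 0.36 ± 0.12 and 0.11 ± 0.14 and did not pass. CBX3, a heterochromatin protein, fell by 0.39 ± 0.09. The CBX3 call was lost without any 1 sample except Pax5-deficient replicate 3 (limma adjusted p = 0.0518 to 0.111) and after quantile normalization (0.0560), and the TFDP2 call without wild-type replicate 2 or 3 (0.0603 to 0.0708). HDAC2, the brightest, had -0.30 ± 0.13 and did not pass.

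Of 19 measured coactivators and cofactors of MYC, 1 rose, 2 fell and 16 did not pass, and the median difference was 0.05, or -0.01 without Pax5-deficient replicate 2, 0.02 without any 1 wild-type sample and 0.01 without dim probe sets. The share that passed was 15.8%, the same as that of all named genes, so it is no result about the list. ACTL6A, an actin-like subunit of chromatin complexes that bind MYC, had 9.04, 9.25 and 9.10 in Pax5-deficient samples, against 7.98, 8.30 and 8.12 in wild-type samples, and rose by 0.99 ± 0.11 (SE, n = 3 per group; limma adjusted p = 0.000548). Further probe sets of ACTL6A rose by 1.03 ± 0.12 and 1.05 ± 0.12. The acetyltransferase EP300 fell by 0.57 ± 0.09 on its brightest probe set and had -0.06 ± 0.12 on another that was above background. The mean of its probe sets, which takes in a further probe set at background in both groups, did not pass (limma adjusted p = 0.218). YEATS4, a reader of acetylated histones, fell by 0.49 ± 0.10, and this did not hold without wild-type replicate 2 (limma adjusted p = 0.0588), and its second probe set above background had -0.74 ± 0.20 and did not pass (0.0515). KAT2A, the brightest, had 0.05 ± 0.08 and did not pass, while a dimmer KAT2A probe set rose by 0.43 ± 0.10.

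Of 14 measured genes that set the stability or modification of MYC protein, 1 rose, 2 fell and 11 did not pass. Thus 21.4% passed, against 15.8% of all named genes, and the median difference was 0.01. That median had no stable sign, at -0.03 to 0.07 without 1 sample, 0.09 after quantile normalization and 0.06 without dim probe sets. FBXW7, the ubiquitin ligase subunit that marks MYC for degradation, had 8.13, 8.36 and 8.20 in Pax5-deficient samples, against 7.43, 7.70 and 7.69 in wild-type samples. It rose by 0.62 ± 0.11, or 1.54-fold (SE, n = 3 per group; limma adjusted p = 0.00646). PPP2R5A, a regulatory subunit of protein phosphatase 2A, fell by 0.49 ± 0.12, a call lost without any 1 sample except Pax5-deficient replicate 2 (0.0725 to 0.115). AXIN1, a scaffold for phosphorylation of MYC, fell by 0.36 ± 0.10 on its brightest probe set, while 3 others above background had -0.21 to 0.16 and did not pass. This AXIN1 fall was lost without any 1 sample except wild-type replicate 2 (limma adjusted p = 0.0587 to 0.163) and after quantile normalization (0.124). It was also lost with a variance trend (0.0972) and with the mean of its probe sets (0.666). That mean takes in probe sets at background in both groups. PLK1, the brightest, had -0.21 ± 0.12 and did not pass. The arrays measure transcripts, and MYC protein was not measured.

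Genes widely described as MYC targets were then counted. Among all named genes 6.01% rose and 9.74% fell, and their mean level was 5.90 to 5.95 per sample. The lists in ribosome biogenesis, metabolism and translation were brighter, with mean levels of 9.18 to 10.05. The part of signal level in their counts was not tested. In ribosome biogenesis, 6 of 31 measured genes rose, 1 fell and 24 did not pass, and the median difference was 0.19, with 25 of 31 above 0, against 7293 of 13009 named genes. The median was 0.12 without Pax5-deficient replicate 2. IMP4 and NOP16, both needed to assemble ribosomal subunits in the nucleolus, rose by 0.64 ± 0.09 and 0.60 ± 0.11 log2 units (SE, n = 3 per group). DKC1, the pseudouridine synthase of the nucleolus and telomerase, fell by 0.46 ± 0.08. NPM1, the brightest of the list, had -0.06 ± 0.10 and did not pass. The count of rises was 4 without Pax5-deficient replicate 1, 3 without Pax5-deficient replicate 2 or 3 or wild-type replicate 2, and 2 without wild-type replicate 1 or 3.

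In nucleotide, polyamine and energy metabolism, 8 of 33 measured genes rose, 3 fell and 22 did not pass, with a median difference of 0.10, or 0.17 without wild-type replicate 2. Thus 33.3% passed, against 15.8% of all named genes. TFRC, the transferrin receptor, had 11.83, 11.89 and 11.65 in Pax5-deficient samples, against 10.41, 10.54 and 10.88 in wild-type samples, and rose by 1.18 ± 0.13, or 2.26-fold (SE, n = 3 per group). ODC, the first enzyme of polyamine synthesis and listed as ODC1 in other species, rose by 0.71 ± 0.10. SRM, the next enzyme of that pathway, rose by 1.07 ± 0.24, and its call was lost without Pax5-deficient replicate 3 or without any 1 wild-type sample (limma adjusted p = 0.0646 to 0.0854). PSPH, which completes serine synthesis, fell by 1.08 ± 0.10, and ADSL, a purine enzyme, by 0.64 ± 0.08. ODC and SRM were named after their values were seen. ENO1, the brightest, had 0.07 ± 0.12 and did not pass. The count of rises was 5 without Pax5-deficient replicate 3 and 4 without any 1 wild-type sample.

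Among 31 measured targets in translation, chaperones and growth, 5 rose, 1 fell and 25 did not pass, and the median difference was 0.17, or 0.09 without Pax5-deficient replicate 2. The share that passed was 19.4%, against 15.8% of all named genes. ID2, an inhibitor of E proteins, rose by 1.89 ± 0.19, or 3.71-fold (SE, n = 3 per group), and by 0.74 ± 0.09 on another probe set, while 1 more above background had 0.14 ± 0.11 and did not pass. EIF4G1, a scaffold of translation initiation, rose by 0.66 ± 0.11. CCND2, a D-type cyclin, fell by 0.84 ± 0.12 and by 0.98 ± 0.22 on a second probe set, and the remaining one had -0.64 ± 0.22 and did not pass (limma adjusted p = 0.113). HSPE1, the brightest, had 0.04 ± 0.08 and did not pass. The count of rises was 3 without wild-type replicate 1 or 3. Of 24 measured genes described as repressed by MYC, 3 rose, 3 fell and 18 did not pass, with a median difference of 0.06, or 0.03 without Pax5-deficient replicate 1, 0.04 without wild-type replicate 1 and 0.15 without dim probe sets. Of these genes 25% passed, against 15.8% of all named genes. BTG2 and ID3, both of which restrain cell growth or differentiation, rose by 1.17 ± 0.12 and 1.10 ± 0.11. BTG2 rose by 1.06 ± 0.18 on a second probe set and had -0.20 ± 0.16 on a dimmer one, which did not pass. CEBPB, a transcription factor of myeloid cells, fell by 1.75 ± 0.19. BTG1 and CDKN1B, named after their values were seen, fell by 0.73 ± 0.09 and 0.53 ± 0.13 on their brightest probe sets. That CDKN1B call did not hold without Pax5-deficient replicate 3 or either of wild-type replicates 2 and 3 (adjusted p = 0.11 to 0.12, limma). Another CDKN1B probe set, above background in all 6 samples, fell by 0.84 ± 0.16 (limma adjusted p = 0.0100). FTH1, the brightest, had 0.28 ± 0.08 and did not pass (limma adjusted p = 0.0664), while another FTH1 probe set rose by 0.36 ± 0.09.

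Over the 9 lists together, 185 genes were measured, of which 25 rose and 21 fell, and the median difference was 0.06. Among all named genes 6.01% rose and 9.74% fell. The 46 calls in the lists were 26 without wild-type replicate 2 and 25 without wild-type replicate 3. After quantile normalization 34 rose and 15 fell, so the share of rises among the calls was 54.3% on the deposited values and 69.4% after it. Over all probe sets, a different unit from the list genes, that share was 36.9% on the deposited values and 45.7% after it. Counted as genes, 782 of all named genes rose and 1267 fell on the deposited values, and 1059 rose and 1138 fell after it. Without dim probe sets 26 list genes rose and 23 fell, and of 8917 named genes 816 rose and 1283 fell. Several of the list genes that rose lie on chromosome 9, which was looked at after the values were seen. Other chromosomes that carry no member are not given beside it. On chromosome 9, 108 of 383 named genes rose (28.2%, against 6.01% of all named genes), 15 fell, and the median difference was 0.16. Median deviations from the wild-type mean were 0.17 to 0.22 in the Pax5-deficient samples and -0.01 to 0.02 in the wild-type samples. Of 8 list genes on chromosome 9, 6 rose, namely ACTL6A, TFDP2, IMP4, TFRC, EIF4G1 and PTMA, the last named after its value was seen. PTMA rose by 0.40 ± 0.09 and by 0.48 ± 0.09 on a second probe set, and 2 others above background had 0.06 ± 0.09 and 0.08 ± 0.08 and did not pass. The first PTMA call did not hold without wild-type replicate 1 or 3 (limma adjusted p = 0.0606 to 0.0733). Among the 177 list genes elsewhere, 19 rose and 21 fell, with a median difference of 0.05. Without those on chromosome 9, the median stayed at 0.19 in ribosome biogenesis, and it was 0.09 in metabolism and 0.07 in translation, chaperones and growth.

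**Figure D4:**
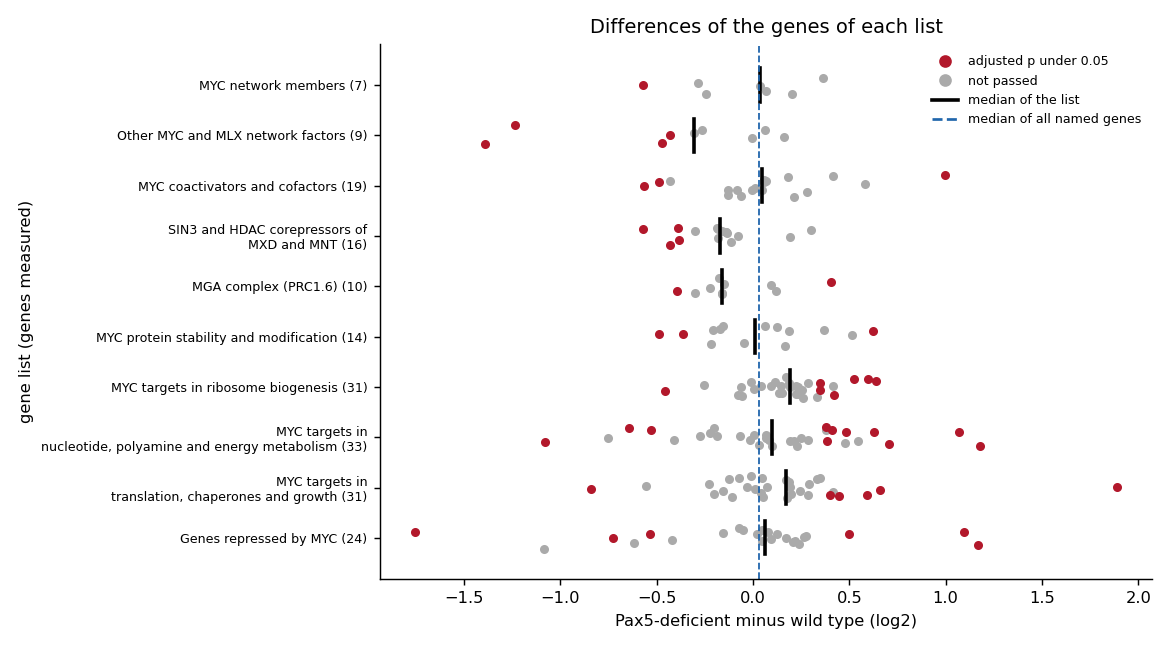
Difference of each measured gene on the log2 scale, Pax5-deficient minus wild type (x axis), for the 7 member genes and the genes of 9 lists (y axis, with the number measured). Red points passed an adjusted p of 0.05, the black bars are list medians and the dashed line is the median of all named genes, 0.03. The medians lie under that line for relatives and partners of the network (-0.30), SIN3 and HDAC corepressors (-0.17), the MGA complex (-0.16) and MYC protein stability (0.01), and above it for targets in ribosome biogenesis (0.19), translation (0.17) and metabolism (0.10), repressed genes (0.06) and coactivators (0.05).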

How the data were processed

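Total RNA of 3 Pax5-deficient and 3 wild-type DT40 samples was hybridised to 1 Affymetrix chicken array each, per the labels. The deposited values are log2 expression values made by the authors with RMA, per the submitters' processing notes. RMA generally corrects background, quantile normalizes and summarises probes, and it understates changes of dim probes. The sources used here give neither its version nor a batch or scan date.

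Of 38535 probe sets (0 missing values), the 96 AFFX controls were left out. Names came from the platform annotation and GRCg7b symbols (0 changed). Of the tested probe sets 27168 had 1 symbol, 177 several and 11094 none here. A gene was represented by its brightest probe set. A gene counted as at background when all 3 samples of a group were at or under it, and its fold is then a bound from group means against background.

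Each probe set was fitted with limma 3.58.1 in R 4.3.3 (lmFit with group as the only term, eBayes, two-sided) and adjusted by Benjamini-Hochberg over 38439 probe sets, at a threshold of 0.05. Within groups the SD had a median of 0.12 in Pax5-deficient and 0.11 in wild-type samples. The number of arrays limits the precision. Data were simulated as independent normal values with the measured mean and within-group SD of each probe set. On these simulated data, the fit over 38439 probe sets recovered 26.9% of 67 probe sets altered by 0.5 log2 units. It recovered 73.1% of 67 altered by 1 and 98.5% of 66 altered by 2. In the measured data 4085 probe sets passed. The adjustment is stricter where fewer probe sets are altered, so these shares can understate the recovery in the measured data. The SDs used were themselves estimates from few arrays, and how this moves the shares was not tested. Plots were drawn with matplotlib.

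The members, the 9 lists and the 5 marker lists were chosen with earlier results of these data known. List symbols were matched by symbol, with ODC1 matched as ODC. Named genes were the members, PAX5, up to 3 genes with the smallest adjusted p that passed and the brightest other gene of each list, and the 3 genes most like MYC and most like MGA. Any other is said to be named after its values were seen, apart from the rest of the list of 9 relatives and partners of the network, given in full. Alternatives were quantile normalization, a filter on dim probe sets, a variance trend, the mean of probe sets, a replicate block, and leaving out each sample. E-box motifs and sequences were not analysed here.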

Additional observations from a re-analysis of the deposited data

How the results depend on the processing

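The 2 MGA calls held in each setting run on single probe sets. The count of member probe sets that passed was 2 throughout, and 0 with a change of at least 2-fold required. The count of member genes was 1, and 0 at 2-fold or with the mean of probe sets. Over all probe sets 4085 passed, 2490 (without wild-type replicate 2) to 4172 when 1 sample was left out, and 977 at 2-fold. For genes of the 9 lists the count was 46, 25 to 39 without 1 sample, and 9 at 2-fold. The PAX5 fall, seen on 1 of 4 probe sets, kept its call. Its difference of -0.84 was between -0.98 and -0.71 without 1 sample. The Pax5-deficient values of that probe set were at background, so the size of the fall is known only as at least 1.47-fold.

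Whether the replicate numbers pair the samples is not stated. Deviations of same-numbered samples correlated at 0.12, 0.07 and -0.01, and differently numbered samples were not compared. With the replicate number as a block, 4116 probe sets, 2 member probe sets, 1 member gene and 46 list genes passed, and 5 single calls were lost. These were the calls on the brightest probe sets of AXIN1 (limma adjusted p = 0.0759), CBX3 (0.0530), CDKN1B (0.0588), SIN3B (0.0504) and TM4SF18 (0.0663).

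Signs turned for differences that did not pass. Leaving out 1 sample gave -0.088 to 0.108 for the third MGA probe set by level, -0.037 to 0.144 for the sixth, -0.148 to 0.147 and -0.032 to 0.272 for the MNT probe sets, -0.015 to 0.103 and -0.062 to 0.145 for the dimmer MXD1 probe sets, -0.019 to 0.188 for ENO1, -0.0013 to 0.068 for HSPE1, -0.064 to 0.069 for MLX and -0.133 to 0.0026 for NPM1. Quantile normalization gave -0.0067 for the sixth MGA probe set and 0.0028 for MLX. The mean of probe sets gave 0.032 for NPM1 and -0.128 for PAX5. The cause was not tested. Of 36 single calls, 14 were lost when 1 or another sample was left out. Without scanner data, saturation of bright signals and detection of dim ones could not be examined.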
